A study of Homo sapiens with 6 samples.

Results

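The genes described here are PTGS2 and 9 other genes of the prostaglandin pathway, 10 of the 22411 genes that had an array row with a single gene symbol. They were chosen by name, with earlier results of these arrays known, and each was represented by its row with the highest mean over the 6 arrays. That mean level is therefore part of the choice and not a result, and each of the 10 genes had 1 such row. RNA was measured in U87MG cells, an established human glioblastoma line, infected with lentivirus and grown for 5 days after drug selection. All 3 groups carried a short hairpin RNA, either shGFP, the control against a protein the cells do not make, or sh50 or sh52, whose names match the last digits of 2 lentiviral clones in the design text. That text states no target for them, and the series title names SAT1. Each group had 2 arrays, numbered 1 and 2. The labels do not say whether the numbers mark separate infections or cultures, so every p-value measures the spread between these arrays only, and the number of arrays limits the precision. All values are RMA expression values, read as log2, and folds hold only for base 2 without further scaling.

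Prostaglandins are lipid signals made on demand from arachidonic acid. A phospholipase, PLA2G4A, frees arachidonic acid from membranes, a cyclooxygenase (PTGS1, the steady form, or PTGS2, the induced form) converts it to prostaglandin H2, and terminal synthases turn that into prostaglandin E2 (PTGES, PTGES2, PTGES3) or prostacyclin (PTGIS). Prostaglandin E2 acts on receptors such as PTGER2 and PTGER4, which raise cyclic AMP, and HPGD starts its breakdown. In gliomas PTGS2 is known as an inflammatory gene whose short-lived mRNA is induced by cytokines such as interleukin 1.

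The arrays were checked before the members were read. SAT1, the gene of the series title, stood at 9.45 and 8.96 on the shGFP arrays, at 9.36 and 8.35 on the sh50 arrays, and at 10.83 and 7.84 on the sh52 arrays. In the fit SAT1 differed by -0.35 ± 0.96 (SE) with sh50 (limma, adjusted p = 0.982). Since sh50 replicate 1 lay above shGFP replicate 2, a lowering of SAT1 by sh50 is not shown. The array labelled sh52 replicate 1, called the doubted array where it is left out, had the highest SAT1 of all 6. That goes against a hairpin that lowers it. The fitted differences with sh52 printed for members and for genes named from lists are therefore also given with that array left out. A value with that array left out sets sh52 replicate 2 alone against both arrays of the other group. It therefore also carries the difference between the replicate numbers and cannot be read as the hairpin's alone. Differences between the replicate numbers are in the main also given without the sh52 pair. The counts without overlap and the plots include all arrays. The mean of 8 bacterial and phage spike-in controls lay between 8.88 and 9.83 and was highest on that same array. Of 13 glioma and astroglial markers 8 lay at or above the filter on dim rows (a mean of 3.98), while AQP4, FABP7, OLIG2, S100B and SOX2 lay below it. No tissue mixture was sampled, but in a bulk RNA sample fewer cells of a type and less RNA per cell cannot be told apart.

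Among the tested members the largest differences lay between the arrays numbered 1 and 2, not between hairpins. PTGS2 and PTGES, the inducible pair that makes prostaglandin E2, were both high on all 3 arrays numbered 1 and low on all 3 numbered 2. Their promoters are shown because these genes were high and low on the same arrays. Each is the stretch of 250 bases that ends just before the transcription start in RefSeq (GRCh38.p14), for PTGS2 at chr1:186680424-186680673 and for PTGES at chr9:129753043-129753292, both on the minus strand and written 5′ to 3′, with matches to 6 motifs in capitals.
PTGS2: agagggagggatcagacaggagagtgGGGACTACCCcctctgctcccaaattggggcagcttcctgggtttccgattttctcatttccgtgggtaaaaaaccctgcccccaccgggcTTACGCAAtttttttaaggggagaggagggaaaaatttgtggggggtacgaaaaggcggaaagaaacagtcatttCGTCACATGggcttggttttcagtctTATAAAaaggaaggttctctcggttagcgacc
PTGES: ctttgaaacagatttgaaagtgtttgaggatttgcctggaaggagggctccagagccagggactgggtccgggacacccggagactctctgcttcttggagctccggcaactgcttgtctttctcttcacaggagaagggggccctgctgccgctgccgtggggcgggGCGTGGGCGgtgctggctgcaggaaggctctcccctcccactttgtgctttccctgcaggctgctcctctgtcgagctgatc

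The motifs were searched on both strands. In the PTGS2 stretch the first capitals match the NF-kB motif GGGANNNNCC, which 22.6% of all 35116 stretches of this length hold. The second match the C/EBP motif TTNNGCAA, held by 9.05%. The third run joins the short core of the cyclic AMP response element, CGTCA (21.2% of stretches), and the E-box CACNTG (36.5%), which overlap by 2 bases. The last is the TATA box TATAAA, which lies 32 to 27 bases before the start and is held by 10.7% of stretches. The PTGES stretch held none of these letters and 1 match to the EGR motif GCGNGGGCG, held by 8.41%. A match describes the letters only and shows no binding in these cells.

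**Figure D1:**
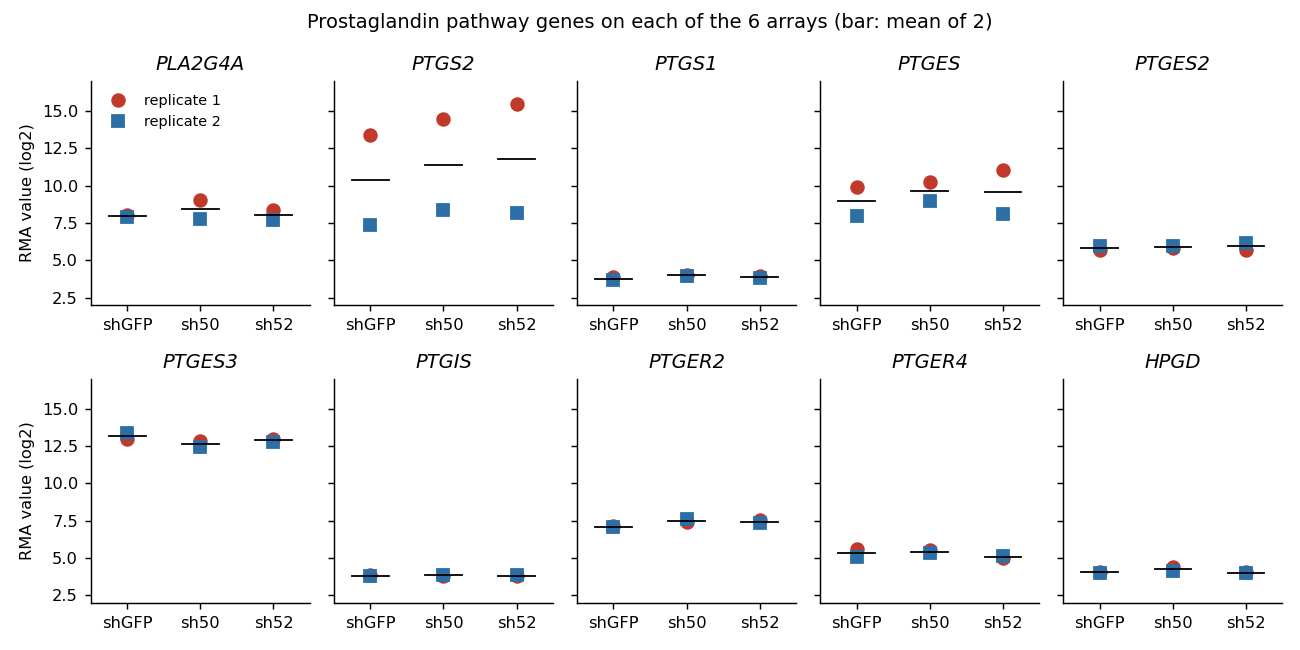
RMA values (log2, y axis) of the 10 genes on each of the 6 arrays by hairpin (x axis), circles for replicate 1, squares for replicate 2 and bars for the mean of 2 arrays. PTGS2 lies between 13.42 and 15.47 on the arrays numbered 1 and between 7.35 and 8.39 on those numbered 2, and PTGES is split the same way.

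PTGS2 (transcript cluster TC01003638.hg.1) stood at 13.42 on shGFP replicate 1 and 7.35 on shGFP replicate 2. It stood at 14.43 and 8.39 on the sh50 arrays. It stood at 15.47 on the array labelled sh52 replicate 1 and 8.14 on sh52 replicate 2. The lowest array numbered 1 was thus far above the highest numbered 2. Within a group the difference between the numbers was 6.08 in shGFP (67.5-fold), 6.04 in sh50 (65.9-fold) and 7.33 in sh52 (161-fold). The mean of these differences, 6.48 ± 0.30 (SE, fit of group and number over 6 arrays), ranked first in size among the 33764 transcript clusters tested, and so did the range of 8.12 over the 6 arrays. This pattern led to the choice of the gene, so its size is a description and no test is given. Without the sh52 pair, in which the array labelled replicate 1 is in doubt, the mean difference was 6.06.

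PTGES, the inducible synthase often coupled to PTGS2, stood at 9.92 and 7.97 on the shGFP arrays. Its values were 10.26 and 8.98 with sh50, and 11.03 and 8.09 with sh52. All arrays numbered 1 again lay above all numbered 2. The differences were 1.95 in shGFP (3.87-fold), 1.28 in sh50 (2.43-fold) and 2.95 in sh52 (7.70-fold), with a mean of 2.06 ± 0.33 (SE) that ranked 70 of 33764 in size. Without the sh52 pair the mean was 1.62. PTGS2 and PTGES were the members at least 1 log2 higher on the array numbered 1 in each of the 3 groups, as were 0.261% of all transcript clusters.

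PLA2G4A, which frees arachidonic acid, is the neighbour of PTGS2 on chromosome 1, with 1 long noncoding RNA gene, PACERR, between them in the RefSeq table. It stood at 8.03 and 7.90 on the shGFP arrays, 9.03 and 7.80 with sh50, and 8.34 and 7.71 with sh52. The arrays numbered 1 lay above those numbered 2 without overlap here too, but by only 0.13 in shGFP against 1.23 in sh50 and 0.63 in sh52. The mean difference was 0.66 ± 0.24 (SE), 0.38 without sh50 and 0.68 without the sh52 pair. PTGES2, a prostaglandin E synthase usually described as steady, lay the other way. It stood at 5.71 and 5.94 in shGFP, 5.84 and 5.94 with sh50, and 5.72 and 6.15 with sh52, with a mean difference of -0.26 ± 0.14 (SE) and of -0.17 without the sh52 pair.

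Of the 8 members at or above the filter, 3 (PTGS2, PTGES and PLA2G4A) thus lay higher on the arrays numbered 1 without overlap and 1 (PTGES2) lay lower. Over all transcript clusters 4.01% lay higher and 8.42% lower without overlap, and since the choice of members drew on this contrast nothing is read from their count. The other 4 tested members showed no such split. Their mean differences between the numbers were 0.08 ± 0.20 (SE) for PTGES3, a chaperone partner that also acts as a synthase, 0.04 ± 0.15 for the receptor PTGER2, 0.21 ± 0.17 for the receptor PTGER4 and 0.11 ± 0.13 for HPGD. Without the sh52 pair they were 0.01, -0.06, 0.37 and 0.16. The median over the 8 tested members was 0.16, against -0.04 over all transcript clusters.

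**Figure D2:**
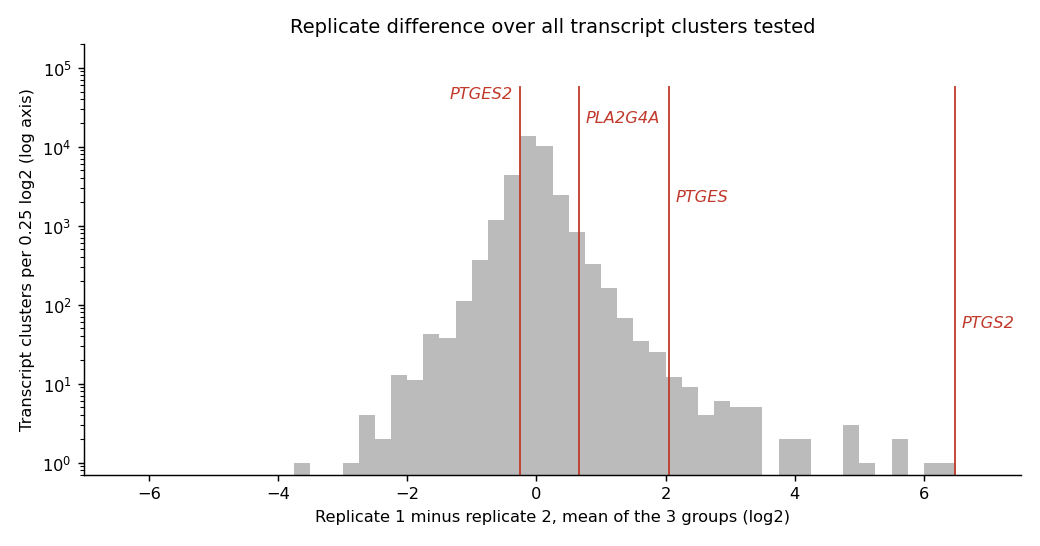
Number of transcript clusters (y axis, log scale) by the difference between replicate 1 and replicate 2, averaged over the 3 groups (x axis, log2). Most lie near the median of -0.04, while PTGS2 at 6.48 is the farthest of all 33764 and PTGES at 2.06 lies in the upper tail.

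The remaining members, PTGS1 and PTGIS, had means of 3.89 and 3.83, below the filter of 3.98, and were not tested. PTGS1, the steady cyclooxygenase, lay between 3.66 and 4.04 on the 6 arrays. PTGIS, prostacyclin synthase, lay between 3.79 and 3.87. Both rows were as dim as the middle of the array, whose median lay between 3.92 and 4.07, so small differences in them cannot be read as changes of the mRNA. HPGD, at 4.01 to 4.37, was just inside the filter.

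Other measures were read by replicate number beside PTGS2. SAT1 was also higher on the array numbered 1, by 0.48 in shGFP, 1.02 in sh50 and 2.99 in sh52. The spike-in mean was 9.25 against 8.88 in shGFP, 9.26 on both arrays of sh50, and 9.83 against 9.24 in sh52. In the same groups PTGS2 differed by 6.08, 6.04 and 7.33. White blood cells can also make PTGS2. Of 10 blood and immune markers 9 had a row and 4 lay above the filter, while PTPRC, CD14, ITGAM, AIF1 and CD3E lay below it. Their summed values were 48.5, 48.8 and 49.3 on the arrays numbered 1 (shGFP, sh50 and sh52) and 48.0, 48.3 and 49.6 on those numbered 2. The part of these measures, or of a shared batch behind the numbers, in the difference of PTGS2 was not tested.

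The profile of PTGS2 over the 6 arrays was compared with that of 3574 other genes whose values spanned at least 1 log2. The 5 most alike by Pearson's r over 6 arrays were FAM174A (0.992), FGF7 (0.992), PTPRN (0.991), NFKB2 (0.984) and RCAN1 (0.983), and 29 genes reached 0.95. With 6 arrays that fall into a high and a low set, r mostly reflects that split. PTGES reached 0.97, PLA2G4A 0.75 and PTGES2 -0.82. FGF7, a secreted growth factor, stood at 8.61, 9.07 and 9.48 on the arrays numbered 1 and at 4.44, 4.74 and 5.39 on those numbered 2 (shGFP, sh50 and sh52 each time). RCAN1, an inhibitor of calcineurin, stood at 6.69, 7.58 and 7.64 against 5.35, 5.59 and 5.47. NFKB2, a subunit of NF-kB, differed less, by 0.71 in shGFP, 0.61 in sh50 and 1.05 in sh52.

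**Figure D3:**
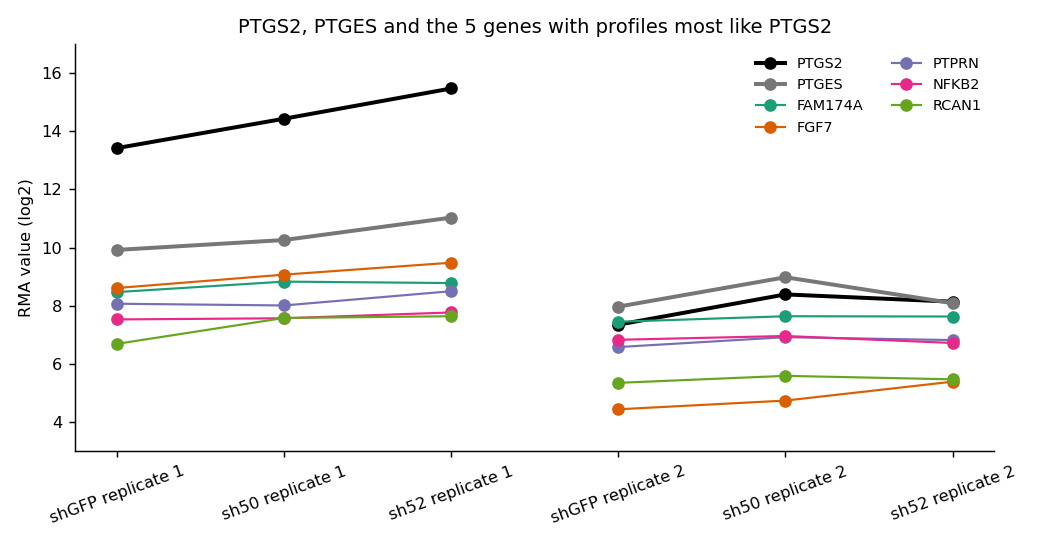
RMA values (log2, y axis) of PTGS2, PTGES and the 5 genes with the profile most like PTGS2 on the 6 arrays (x axis), the arrays numbered 1 at the left and those numbered 2 at the right, with lines only joining arrays of one number. All 7 genes are higher at the left, FGF7 by 4.09 to 4.33 and FAM174A by 1.02 to 1.19.

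Against shGFP the hairpins changed no member past the threshold. By limma over all 6 arrays 0 of 33764 transcript clusters passed an adjusted p of 0.05 with sh50 (0%) or with sh52 (0%), while 8.25% and 8.78% had an unadjusted p under 0.05. PTGS2 had the highest group mean with sh52, 11.80 ± 5.18 (SD, n = 2), then sh50, 11.41 ± 4.27, then shGFP, 10.39 ± 4.30, and no neighbours in this order differed beyond their spread. The difference was 1.02 ± 3.35 (SE) with sh50 (limma, adjusted p = 0.985) and 1.41 ± 3.35 with sh52 (limma, adjusted p = 0.935). The intervals ran from -7.30 to 9.34 and from -6.90 to 9.73, so these fits, which leave the replicate number out, bound the difference poorly. In a limma fit of group and number the differences kept their size but had narrower intervals. These ran from 0.09 to 1.95 with sh50 and from 0.49 to 2.34 with sh52, both above 0 (adjusted p = 0.452 and 0.38). The labels do not say that the numbers pair arrays. The gene was chosen for its split by number, so these intervals are descriptions. Leaving out 1 array in the fits of group alone turned the sign of the PTGS2 difference. The values were -2.02 to 4.06 for sh50 and -2.25 to 5.08 for sh52. Without the array labelled sh52 replicate 1 the sh52 value was -2.25. Values with 1 array left out set unlike replicate numbers against each other, so they also carry the difference between the numbers. Against shGFP replicate 2 alone, sh52 replicate 2 was 0.79 higher.

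Among arrays of the same number PTGS2 was higher with each hairpin than with shGFP. With sh50 it was 1.00 higher in number 1 (2.01-fold) and 1.04 higher in number 2 (2.05-fold). With sh52 it was 2.04 higher on the array labelled replicate 1 (4.12-fold) and 0.79 higher in number 2 (1.73-fold). These differences share the 2 shGFP arrays and have no replicate of their own. Both same-number differences were above 0 for 29.0% of all transcript clusters with sh50 and for 29.5% with sh52. PTGES differed by 0.34 and 1.01 with sh50, and by 1.11 and 0.12 with sh52. In the fit its difference was 0.68 ± 1.13 (SE) with sh50 (limma, adjusted p = 0.963) and 0.62 ± 1.13 with sh52 (limma, adjusted p = 0.911). Leaving out 1 array turned its sign as well, with values of -0.30 to 1.65 for sh50 and -0.86 to 2.09 for sh52. The sh52 value was -0.86 without the array labelled sh52 replicate 1, but 0.12 between the arrays numbered 2 alone.

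PLA2G4A differed by 0.45 ± 0.44 (SE) with sh50 (limma, adjusted p = 0.894), a value set by sh50 replicate 1, without which it was -0.17. With sh52 it differed by 0.06 ± 0.44 (adjusted p = 0.98), a value that was -0.25 with the doubted sh52 array left out. PTGES3 stood at 12.96 and 13.35 on the shGFP arrays, 12.83 and 12.42 with sh50, and 13.00 and 12.78 with sh52. Both sh50 arrays lay below both controls, and the difference was -0.53 ± 0.23 with sh50 (limma, adjusted p = 0.628) and -0.26 ± 0.23 with sh52 (adjusted p = 0.775). PTGES2 differed by 0.06 ± 0.21 and 0.11 ± 0.21 (adjusted p = 0.985 and 0.915). With the doubted array left out the sh52 values were -0.37 for PTGES3 and 0.33 for PTGES2.

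Of the receptors, PTGER2 was the member whose arrays lay apart from the controls with both hairpins. It stood at 7.14 and 7.06 on the shGFP arrays, 7.41 and 7.62 with sh50, and 7.56 and 7.32 with sh52, so that the lowest hairpin array lay above the highest control. The difference was 0.41 ± 0.17 (SE) with sh50 (95% interval -0.02 to 0.84; limma, adjusted p = 0.618) and 0.34 ± 0.17 with sh52 (-0.09 to 0.77; adjusted p = 0.632). Without the array labelled sh52 replicate 1 the sh52 value was 0.22. PTGER4 stood at 5.59 and 5.08 on the shGFP arrays, 5.55 and 5.31 with sh50, and 5.01 and 5.12 with sh52. Its groups overlapped the controls in both cases, with differences of 0.09 ± 0.22 (adjusted p = 0.98) and -0.27 ± 0.22 (adjusted p = 0.758). HPGD differed by 0.21 ± 0.16 with sh50 (adjusted p = 0.847), where both arrays lay above both controls, and by -0.02 ± 0.16 with sh52 (adjusted p = 0.982). The sh52 values on leaving out the doubted array were -0.21 for PTGER4 and -0.03 for HPGD.

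Counted without overlap, 2 of the 8 tested members (PTGER2 and HPGD) lay above shGFP with sh50 and 1 (PTGES3) below, where 18.4% and 20.9% of all transcript clusters did. With sh52, 1 (PTGER2) lay above and 0 below, against 20.2% and 19.5%. The medians over the 8 were 0.31 with sh50 and 0.08 with sh52, against -0.01 and 0.00 over all. Between the hairpins 0 transcript clusters passed (0%; limma, 6.33% at an unadjusted p under 0.05). PTGS2 differed by 0.39 ± 3.35 (SE) in sh52 minus sh50 (adjusted p = 0.991), and the lowest adjusted p of a member was 0.853, for PTGER4 at -0.37 ± 0.22. Leaving out the doubted array gave -3.27 for PTGS2 and -0.31 for PTGER4. For PTGS2 this set sh52 replicate 2 at 8.14 against the sh50 arrays at 14.43 and 8.39. PTGER4 and HPGD lay lower with sh52 than with sh50 without overlap, as did 16.6% of all.

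**Figure D4:**
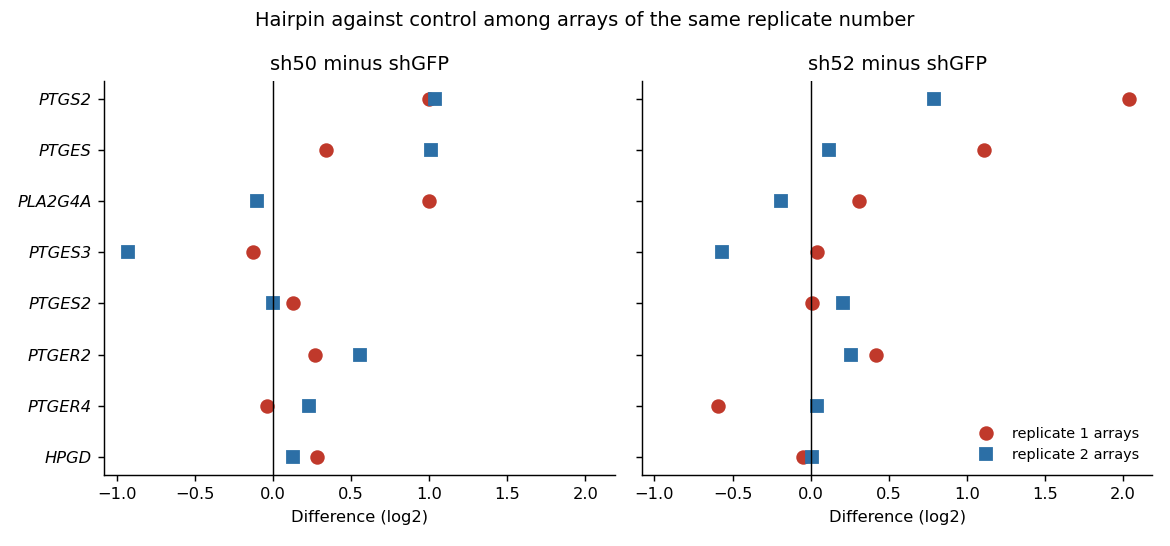
Difference (log2, x axis) between each hairpin array and the shGFP array of the same number for the 8 tested members (y axis), circles for replicate 1 and squares for replicate 2. PTGS2, PTGES and PTGER2 lie above 0 in every pair, from 0.79 to 2.04 for PTGS2. PLA2G4A, PTGER4, PTGES3 and HPGD lie on both sides of 0 with at least 1 hairpin.

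Other genes of the pathway were read from 8 lists with 73 tested genes. By limma 0 of them passed in any of the 4 comparisons, while 4 had an unadjusted p under 0.05 with sh50 (8.25% of all transcript clusters did), 7 with sh52 (8.78%), 6 between the hairpins (6.33%) and 20 between the replicate numbers (10.4%). The first 3 of these counts are near the background. The lists were chosen with earlier results of these data known, so nothing is read from the count between the replicate numbers. Over all transcript clusters 9 (0.0267%) passed between the replicate numbers, all higher in number 1. Of the other synthesis genes 10 of 11 had a row and 7 were tested. AKR1C3, which makes prostaglandin F and steroid hormones, differed by 1.19 ± 0.56 (SE) with sh50 and 1.50 ± 0.56 with sh52 (limma, adjusted p = 0.658 and 0.546). It stood at 6.61 and 7.04 on the shGFP arrays, 7.13 and 8.89 with sh50, and 8.44 and 8.20 with sh52, so all hairpin arrays lay above both controls. Its near-identical relatives AKR1C1 and AKR1C2 differed by 0.74 and 0.98 with sh50 and by 1.53 and 1.46 with sh52. Probes may not tell these 3 genes apart. Over all transcript clusters 18.4% lay above shGFP without overlap with sh50 and 20.2% with sh52. TBXAS1, thromboxane synthase, differed by -0.08 and 0.10, and PRXL2B by -0.07 and -0.10. The list's median was 0.35 with sh50 and 0.24 with sh52, and 5 and 6 of the 7 had a higher estimate. On leaving out the doubted array the sh52 median was 0.42, with AKR1C3 at 1.38, AKR1C1 at 1.36, AKR1C2 at 1.32, TBXAS1 at 0.02 and PRXL2B at -0.05.

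Of 8 other receptor genes 6 were tested. PTGFRN, which encodes a membrane partner of the prostaglandin F receptor, stood at 11.72 on both shGFP arrays, 10.40 and 10.03 with sh50, and 12.14 and 11.58 with sh52. Both sh50 arrays lay below both controls (-1.50 ± 0.25, SE; limma, adjusted p = 0.475), while the sh52 arrays lay on either side of them (0.15 ± 0.25, adjusted p = 0.9). Over all transcript clusters 20.9% lay below shGFP with sh50 without overlap. The receptor genes PTGER1, PTGDR, PTGDR2, PTGIR and TBXA2R differed by -0.15 to -0.01 with sh50 and by -0.10 to 0.27 with sh52. Of 8 genes of breakdown and transport 7 were tested, with medians of -0.11 and -0.10. ABCC4, an exporter of prostaglandin E2, differed by -0.68 ± 0.31 and -0.41 ± 0.31 (adjusted p = 0.643 and 0.738). SLCO4A1, a transporter of organic anions, differed by -0.65 ± 0.27 and -0.79 ± 0.27 (adjusted p = 0.614 and 0.531). PTGR1, PTGR2 and ABCC1 differed by 0.43, -0.08 and 0.13 with sh50 and by -0.12, 0.39 and 0.42 with sh52. Several fitted sh52 values of these 2 lists turned sign once the doubted array was left out, where PTGFRN stood at -0.14, PTGER1 at -0.06, ABCC4 at 0.04 and PTGR1 at 0.24. Between the arrays numbered 2 alone PTGR1 did not turn, with 9.93 in sh52 and 10.42 in shGFP, while PTGFRN, PTGER1 and ABCC4 kept the turned sign. With the doubted array left out the other values were as follows. PTGDR stood at 0.23, PTGDR2 at -0.10, PTGIR at 0.00, TBXA2R at -0.14, PTGR2 at 0.05, ABCC1 at 0.39 and SLCO4A1 at -0.87, and the median of breakdown and transport was 0.04.

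Of 16 other genes of phospholipases and arachidonate handling 11 were tested, with medians of 0.18 with sh50 and 0.07 with sh52. ACSL4, which loads arachidonic acid onto coenzyme A, stood at 13.40 and 12.39 on the shGFP arrays, 14.18 and 13.55 with sh50, and 14.75 and 13.07 with sh52. Its differences were 0.97 ± 0.63 (SE) and 1.02 ± 0.63 (limma, adjusted p = 0.799 and 0.68). LPCAT3, which puts it back into membranes, differed by 1.03 ± 0.37 and 0.86 ± 0.37 (adjusted p = 0.57 and 0.586). PLA2G15 and PLAAT3 differed by 0.71 and 0.76 with sh50 and by -0.58 and -0.62 with sh52, MGLL by -0.35 and -0.16, and MBOAT7 by 0.10 and 0.07. Of 14 lipoxygenase and epoxygenase genes 4 were tested, and EPHX1, an epoxide hydrolase, differed by 1.07 ± 0.45 and 0.47 ± 0.45 (adjusted p = 0.617 and 0.802). LTA4H, ALOX12B and LTB4R differed by -0.22, 0.02 and -0.03 with sh50 and by 0.00, 0.18 and 0.03 with sh52. With the doubted array left out the sh52 median of the phospholipase list was 0.18, and that of the lipoxygenase list went from 0.10 to 0.09. ACSL4 then stood at 0.18, LPCAT3 at 1.12, PLA2G15 at -0.31, PLAAT3 at 0.18, MGLL at -0.32 and MBOAT7 at 0.14, and of the lipoxygenase list EPHX1 at 0.67, LTA4H at 0.12, ALOX12B at 0.06 and LTB4R at 0.01. Between the arrays numbered 2 alone PLAAT3 did not turn, with 8.10 in sh52 and 8.28 in shGFP. LTA4H also lay lower there in sh52, at 9.25 against 9.36.

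Between the replicate numbers, the genes of the cyclic AMP response all had estimates on one side. Of 14 listed genes 12 were tested, 12 had a higher estimate on the arrays numbered 1, and 8 lay higher without overlap, where 4.01% of all transcript clusters did. The median was 0.66, against -0.04 over all, and 9 of the 12 had an unadjusted p under 0.05, against 10.4% of all. Since the list was chosen with earlier results of these data known, these counts are descriptions and nothing is read from them. NR4A2, an immediate early nuclear receptor, stood at 12.09 and 5.06 on the shGFP arrays, 11.02 and 6.23 with sh50, and 8.60 and 5.23 with sh52 (mean difference 5.06 ± 0.68, SE; limma, adjusted p = 0.195). RGS2, which dampens G protein signals, stood at 10.44 and 6.66, 11.96 and 8.10, and 10.72 and 8.56 in the same groups (3.26 ± 0.37; adjusted p = 0.144). In both genes every array numbered 1 lay above every array numbered 2. PDE4B, which degrades cyclic AMP, differed by 1.19 ± 0.13 (adjusted p = 0.141) and the phosphatase gene DUSP1 by 1.36 ± 0.21 (adjusted p = 0.241), both named here after their values were seen. NR4A3 differed by 0.94 ± 0.24 (adjusted p = 0.358), and SIK1, FOSL2 and CREB1 by 0.11, 0.23 and 0.10 (0.29, 0.09 and 0.10 without the sh52 pair). Without the sh52 pair 12 of 12 again had a higher estimate, with a median of 0.75, NR4A2 at 5.91, RGS2 at 3.82, PDE4B at 1.21, DUSP1 at 1.46 and NR4A3 at 1.18. With the hairpins the list's medians were 0.08 (sh50) and 0.00 (sh52), and the sh52 median was -0.27 with the doubted array left out. That last value sets an array numbered 2 against both controls, in a list whose estimates were all higher on the arrays numbered 1. Against shGFP, NR4A2 differed by 0.05 with sh50 and -1.66 with sh52 (SE 2.72), NR4A3 by 0.90 and -0.26, and RGS2 by 1.48 and 1.09 (SE 1.73). SIK1 differed by -0.31 and 0.06, FOSL2 by -0.03 and 0.41, and CREB1 by -0.19 and -0.10. On leaving out the doubted array the sh52 values were -3.34, -0.48, 0.01, 0.18, 0.16 and -0.16 in that order. These carry the same limit. Between the arrays numbered 2 alone NR4A2 stood at 5.23 in sh52 and 5.06 in shGFP.

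Of 17 inducers and transcription factors of PTGS2, 15 were tested, and 3 lay higher on the arrays numbered 1 without overlap and 0 lower, against 4.01% and 8.42% of all transcript clusters. This list too was chosen with earlier results of these data known, so nothing is read from the count. IL1B, the cytokine interleukin 1 beta, stood at 14.77 and 9.84 on the shGFP arrays, 15.21 and 8.06 with sh50, and 13.37 and 10.51 with sh52 (mean difference 4.98 ± 0.79, SE; limma, adjusted p = 0.241). EGR1, an immediate early factor, stood at 9.68 and 7.49, 9.38 and 7.88, and 8.45 and 6.37 (1.92 ± 0.19; adjusted p = 0.113). IL1A stood at 5.13 and 4.60, 5.71 and 4.23, and 7.82 and 4.17 (1.89 ± 0.60; adjusted p = 0.409). Among the arrays numbered 1 the one labelled sh52 had the lowest IL1B and NR4A2 but the highest PTGS2. The list's median was 0.17. Without the sh52 pair it was 0.21, with IL1B at 6.04, EGR1 at 1.85 and IL1A at 1.00. Against shGFP its medians were 0.08 with sh50 and 0.12 with sh52. IL1R1, the receptor of interleukin 1, differed by 0.62 ± 0.38 with sh50 and 1.41 ± 0.38 with sh52 (adjusted p = 0.772 and 0.504), TLR4 by 1.08 ± 0.30 and -0.03 ± 0.30 (adjusted p = 0.502 and 0.984), and EGFR by -0.52 and 0.12. With sh50 and sh52 in turn IL1B differed by -0.67 and -0.37 (SE 2.72), EGR1 by 0.05 and -1.17 (SE 1.01), and IL1A by 0.10 and 1.13 (SE 1.19). Once the doubted array was left out the sh52 median was 0.07, with IL1R1 at 0.89, TLR4 at 0.34 and EGFR at -0.11. IL1B then stood at -1.80, EGR1 at -2.21 and IL1A at -0.70, values that also carry the difference between the numbers.

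**Figure D5:**
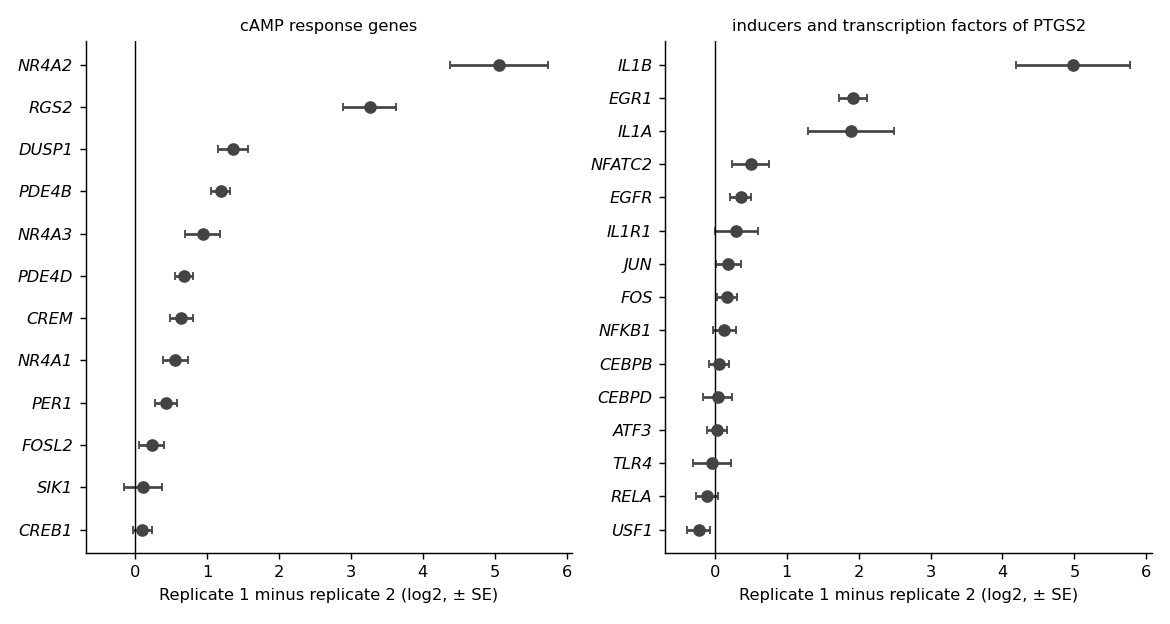
Difference between replicate 1 and replicate 2 (log2, x axis; points are the fitted means over 3 groups, bars the SE) for the tested genes of 2 lists (y axis), the cyclic AMP response at the left and inducers and transcription factors of PTGS2 at the right. All 12 points at the left lie above 0, up to 5.06 for NR4A2, and at the right IL1B at 4.98, EGR1 at 1.92 and IL1A at 1.89 lie apart from the rest.

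Proteins that bind AU-rich elements help to set the lifetime of PTGS2 and other short-lived mRNAs. Of 13 listed genes 11 were tested, and 0 lay higher and 0 lower on the arrays numbered 1 without overlap, against 4.01% and 8.42% of all transcript clusters, so that the count is near the background. Their median difference between the numbers was -0.12, and -0.06 without the sh52 pair. ZFP36, which speeds decay of such mRNAs, differed by 0.09 ± 0.13 (SE) and ELAVL1, which stabilises them, by -0.18 ± 0.19, and by 0.13 and 0.04 without the sh52 pair. Against shGFP, HNRNPD differed by -0.67 ± 0.17 with sh50 and -0.46 ± 0.17 with sh52 (limma, adjusted p = 0.475 and 0.541), and ELAVL1 by -0.48 ± 0.24 and -0.63 ± 0.24 (adjusted p = 0.688 and 0.547). All 4 hairpin arrays lay below both controls for each of them. Over all transcript clusters 20.9% lay below shGFP without overlap with sh50 and 19.5% with sh52. ZFP36 differed by 0.10 and 0.58, ZFP36L2 by -0.36 and -0.81, TIA1 by 0.37 and 0.46, ZC3H12A by -0.11 and 0.69, CELF1 by 0.12 and -0.65, and CPEB1 by 0.30 and -0.49. Leaving out the doubted array gave sh52 values of -0.43 for HNRNPD, -0.32 for ELAVL1, 0.57 for ZFP36, -0.49 for ZFP36L2, 0.29 for TIA1, 0.12 for ZC3H12A, -0.22 for CELF1 and -0.25 for CPEB1.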

How the data were processed

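RNA of 6 U87MG samples was read on human transcriptome arrays, 2 per hairpin. The authors summarised probes to deposited log2 values by RMA (Expression Console, core exons), per the labels. The submitters' processing notes also list Transcriptome Analysis Console. Software versions, the base of the logarithm (taken as 2) and the genome build were not given in the sources used here. Of 70523 features the 67528 transcript clusters were used, and the 33764 with a mean at or above the median of 3.98 were tested. Platform annotation gave 1 symbol for 23781, several for 1543 and none here for 42204, and symbols were updated through RefSeq (GRCh38.p14). RefSeq's promoter table held 9 of the 10 members.

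A limma model (version 3.58.1, R 4.3.3) of group means took in all 6 arrays (3 residual and 2.67 prior degrees of freedom), with two-sided tests and Benjamini-Hochberg adjustment over all tested transcript clusters, and the replicate difference came from a fit of group and number. The fit was tested on simulated data. The members and lists were chosen with earlier results of these data known, so p-values for them are descriptions. Named genes were SAT1, the members, the 2 largest differences each way per list with each hairpin, and the 5 genes most like PTGS2, and others are said to be named after their values were seen. Alternatives were no filter, a 75th percentile filter, centring, quantile normalization, trend and robust options, the replicate block, only the groups compared, an unadjusted threshold, the mean of all rows of a gene, and each array left out.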

Additional observations from a re-analysis of the deposited data

How the results depend on the processing

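For the members' differences, 228 values under the alternatives other than leaving out an array all moved by less than 1 SD of the replicates (for the replicate difference, of the 3 groups' differences), and of 192 values with an array left out 16 moved by more, for PTGER4, HPGD, PLA2G4A and PTGES2. Members past an adjusted p of 0.05 against shGFP or between hairpins numbered 0 under all of them. The SD used to count moved values is wide for a gene whose replicates lie far apart, so that count does not show such a gene to be steady. The sh50 difference of PTGS2 ran from -2.02 to 4.06 with an array left out and did not count as moved. The mean replicate difference of PTGS2 ranged from 6.06 to 6.70 and that of PTGES from 1.62 to 2.45 with an array left out. Each gene had 1 row, so the mean of all rows gave the same values. The filters, the trend and robust options, the replicate block and only the groups compared cannot change an estimate either. Among the 228 values, only those under centring and quantile normalization could therefore move, and the rest do not show steadiness. Transcript clusters passing between the replicate numbers were 9, and 0 to 18 with an array left out (0 without either array of shGFP or of sh50, 18 without either of sh52). With an array left out 0 to 1 passed for sh52 against shGFP and 0 to 1 between the hairpins (1 without sh52 replicate 2 in both). At an unadjusted p under 0.05 the counts were 2784 (sh50), 2964 (sh52), 2138 (between hairpins) and 3495 (replicate numbers). The labels do not say that the numbers pair arrays, and replicate differences correlated over transcript clusters at 0.39 (shGFP and sh50), 0.35 (shGFP and sh52) and 0.05 (sh50 and sh52). With the replicate block 0 passed for sh50, 0 for sh52 and 0 between hairpins, and PTGS2 stood at 1.02 ± 0.36 (SE) with sh50 and 1.41 ± 0.36 with sh52 (limma, adjusted p = 0.452 and 0.38). Dim rows (PTGS1, PTGIS and HPGD) limit what can be read of them.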
